A study of Mus musculus with 4 samples.

Results

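The immunity-related GTPases (IRGs) are a family of interferon-inducible GTPases, and 8 of their genes were followed here across the cells of mouse tumours: Iigp1, Igtp, Irgm1, Irgm2, Tgtp1, Tgtp2, Ifi47 and Gm4841. They were taken by gene symbol alone, as 8 of the 55450 features in each count table, and all 8 were found in each of the 4 libraries. The rule uses symbols and no levels, although the family was picked for study when earlier results of these data were known.

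In mouse cells, interferon-gamma signals through its receptor and JAK kinases, and genes that respond to it often carry gamma-activated sequences in their promoters. Irf1 is among the genes raised early, and its product binds interferon-stimulated response elements. The IRG proteins made in response gather on the vacuoles in which parasites and bacteria such as Toxoplasma and Chlamydia live inside cells, and break them open. Iigp1, Tgtp1, Tgtp2 and Ifi47 encode effector proteins that coat the vacuole, whereas Irgm1, Irgm2 and Igtp encode regulators that sit on the cell's own membranes and hold the effectors inactive there. The genes serve as a readout of interferon signalling in tumours as well as in infected tissue.

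The tumours came from MC38, a colon carcinoma line of C57BL/6 origin, of which 2000000 cells were injected under the skin of the left flank of C57BL/6J mice aged 8 weeks. In the KO group the injected cells had lost Hnrnpa2b1, the gene of an hnRNP protein that binds RNA, and in the WT group control MC38 cells were injected. The mice carried no stated allele, so host cells of both groups had an intact Hnrnpa2b1 gene as far as the labels say. Each group held 2 tumours, each was dissociated with collagenases and dispase without a stated sort and profiled by droplet single-cell RNA sequencing. Whether the KO cells were a single clone is not given in the sources used here, nor is the position of the edit. Tumours are numbered 1 and 2 in each group without a word on whether equal numbers have anything in common, and the p-values cover only the spread among these tumours.

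The 6 members on chromosome 11 lie in GENCODE vM21 (GRCm38) as 2 groups. Irgm1 (chr11:48861968-48871683, minus strand), Tgtp1 (chr11:48985327-48994172, minus), Tgtp2 (chr11:49057194-49064206, minus) and Ifi47 (chr11:49076587-49096974, plus) are close together. Igtp (chr11:58199556-58207591, plus) lies almost wholly inside the span of Irgm2 (chr11:58199618-58222782, plus), so the split of reads between this pair is uncertain. Of the 60-base words in Tgtp1 transcripts, 77.5% also occur in Tgtp2, and 84.1% of those of Tgtp2 occur in Tgtp1. The values of these 2 genes are therefore uncertain as separate genes.

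In the RefSeq promoter table (GRCm38.p6), the search by single member was limited to the 6 members on chromosome 11. Their windows from 250 bases before to 50 after the start were searched on both strands for 2 motifs. The first was a gamma-activated sequence (TTCNNNGAA). The second was the core of the interferon-stimulated response element (GAAA, any 2 bases and GAAA again). These stretches are shown because 4 members share nearly the same arrangement of both motifs, with the matches in capitals and the sequence written 5′ to 3′ along the gene's strand.
Igtp, chr11:58199496-58199546, plus strand: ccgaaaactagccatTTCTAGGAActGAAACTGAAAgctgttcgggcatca
Irgm2, chr11:58214887-58214937, plus strand: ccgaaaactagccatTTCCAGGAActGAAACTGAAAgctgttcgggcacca
Tgtp1, chr11:48992299-48992349, minus strand: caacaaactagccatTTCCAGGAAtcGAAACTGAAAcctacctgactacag
Tgtp2, chr11:49064258-49064308, minus strand: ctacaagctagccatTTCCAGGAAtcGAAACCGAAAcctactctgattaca
Irgm1, chr11:48871421-48871465, minus strand: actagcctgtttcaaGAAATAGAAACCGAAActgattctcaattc

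In Igtp, Irgm2, Tgtp1 and Tgtp2 the first motif begins 45, 75, 88 and 81 bases before the start, and the second follows it after 2 bases. Irgm1 had 2 overlapping matches to the second motif, 30 and 24 bases before its start, and none to the first. The window of Ifi47 matched neither set of letters. Iigp1 and Gm4841 were left out of this search by single member, so no single motif is reported for them. Of 32851 promoter windows in the table, 8.3% held the first motif, 3.44% the second and 0.454% both. The tandem with 2 bases between them was found in 5 windows, those of the 4 members above and of Gm12185, another IRG-type gene that overlaps Tgtp1 on the same strand. That spacing was chosen after the sequences had been seen, and a match describes letters, not a bound site.

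The 4 libraries held 114136609 to 153162562 unique molecular identifiers (UMIs), and 8648 to 11344 cells were analysed per tumour. Between 23 and 43 barcodes were shared by any pair of libraries, at most 0.45% of the smaller one. Cells were clustered together and named from marker genes, so each class name below means cells like that type. The markers fixed for epithelial tumour cells summed to only 40.8 to 58.1 CPM (UMIs of a gene per 1000000 UMIs of its class, summed over cells) in the cells they should mark, so no cluster was named from them. Clusters with a mean under 1 Xist and under 1 Ptprc UMI per 10000 stand in for the tumour cells and are called Xist-low cells, a rule set in earlier work on these data. There were 8069 of them in WT tumour 1, 6192 in WT tumour 2, 1255 in KO tumour 1 and 2500 in KO tumour 2. Hnrnpa2b1 was at 549, 540, 380 and 318 CPM in these cells, a log2 fold change of -0.70 (SE 0.13, adjusted p = 0.0287, edgeR's quasi-likelihood test), so it was lower in both KO tumours but not absent.

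Among the 10 classes with at least 20 cells in every tumour, the members were highest as a group in neutrophils, regulatory T cells, gamma-delta T cells and fibroblasts, and lowest in CD8 T cells and NK cells. Endothelial cells, which had only 55, 19, 55 and 80 cells and so lie outside that order, had a higher sum than neutrophils in every tumour, at 1299, 1893, 2119 and 2323 CPM, of which Iigp1 was 848, 1245, 1575 and 1636 CPM. The sum of the 8 genes was 861, 1467, 1852 and 1276 CPM in neutrophils of WT tumours 1 and 2 and KO tumours 1 and 2, in that order throughout. NK cells had 152, 186, 211 and 178 CPM. These ranges did not overlap. By the median over tumours, the order was neutrophils (1372 CPM), regulatory T cells (1204 CPM), gamma-delta T cells (1120 CPM), fibroblasts (996 CPM), Xist-low cells (811 CPM), mononuclear phagocytes (717 CPM), dendritic cells (582 CPM), CD4 T cells (422 CPM), CD8 T cells (252 CPM) and NK cells (182 CPM). Neighbours in this order overlapped over the 4 tumours, except that all CD4 values (347 to 440 CPM) lay above all CD8 values (149 to 300 CPM). Mural cells and mast or basophil cells also had under 20 cells in WT tumour 2 and were left out, and every ranking below is over the 10 classes. A sum weighs each gene by its UMIs, so it follows the abundant members most.

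**Figure D1:**
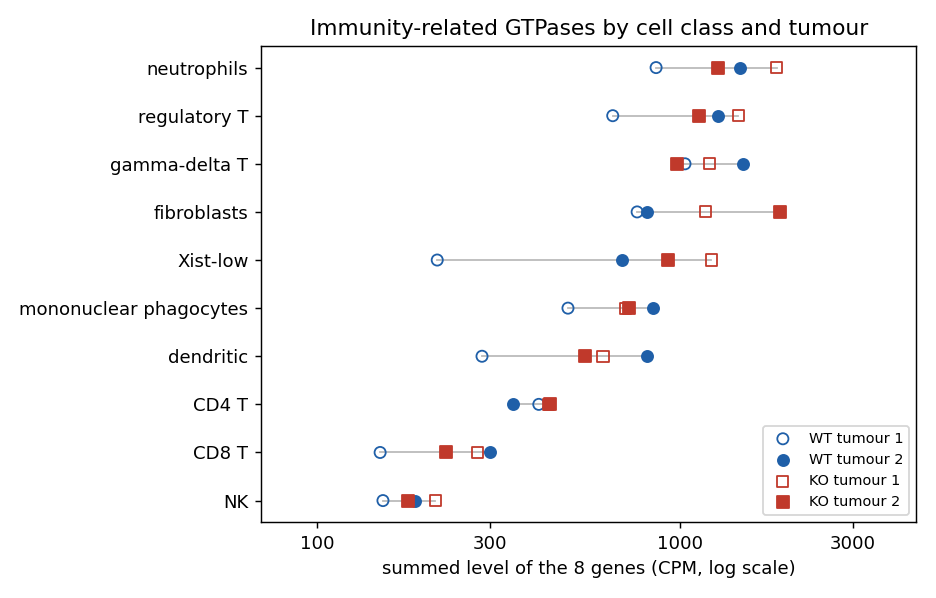
Summed level of the 8 immunity-related GTPase genes (CPM, log scale) in each of the 10 cell classes, with 1 point per tumour and a line from the lowest to the highest. Xist-low cells spread most widely, from 214 CPM in WT tumour 1 to 1221 CPM in KO tumour 1, while NK cells stayed between 152 and 211 CPM.

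Behind the sum, the genes fell into different patterns over the classes. Ifi47, an effector, was at 421, 606, 643 and 547 CPM in neutrophils, above its highest value in any other class, which was 316 CPM in gamma-delta T cells of WT tumour 2. Irgm1, a regulator needed to keep mouse macrophages able to kill mycobacteria, was also highest in neutrophils, at 165, 205, 317 and 197 CPM, and reached at most 86.2 CPM in the rest of the 10 classes. Iigp1, the effector that is often used to mark attacked parasite vacuoles, was low in the same neutrophils, at 18.3, 97.5, 79.0 and 51.8 CPM. WT tumour 1 had only 50 neutrophils, in which 3 UMIs make 54.9 CPM, so its neutrophil values rest on few UMIs. Of the 10 classes it was highest in fibroblasts, at 493, 453, 803 and 1257 CPM, below the endothelial values. Neutrophils and fibroblasts did not overlap for Iigp1, Irgm1 or Ifi47, with Iigp1 higher in fibroblasts and the other two in neutrophils.

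Set against the mean of its own highest class, Iigp1 was at 8.2% in neutrophils, 3.41% in CD8 T cells and 3.8% in NK cells. Subtracting free RNA removed over 50% of these low Iigp1 levels in every tumour: 0, 41.4, 29.5 and 0 CPM were left in neutrophils, 0 to 10.3 CPM in CD8 T cells and 0 to 5.88 CPM in NK cells. Both Iigp1 (chr18:60376027-60392634, plus strand) and Gm4841 (chr18:60268305-60273272, minus strand), an IRG-type gene, lie on chromosome 18. Gm4841 was likewise at 6.44% in neutrophils, and it was at 70.4% in Xist-low cells and 58.5% in fibroblasts. Its highest mean was in regulatory T cells, where it ranged from 3.6 to 54.4 CPM and rests on few UMIs. Igtp and Irgm2, regulators, were highest by the mean in regulatory T cells (476 and 102.5 CPM) and at 83.3% and 92.8% of that in neutrophils. These classes overlapped over the tumours for both genes. By the median Irgm2 was higher in neutrophils (103.2 CPM) than in regulatory T cells (96.9 CPM). Tgtp1 and Tgtp2, effectors first described in T cells, were highest in gamma-delta T cells, with means of 29.1 and 32.3 CPM.

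**Figure D2:**
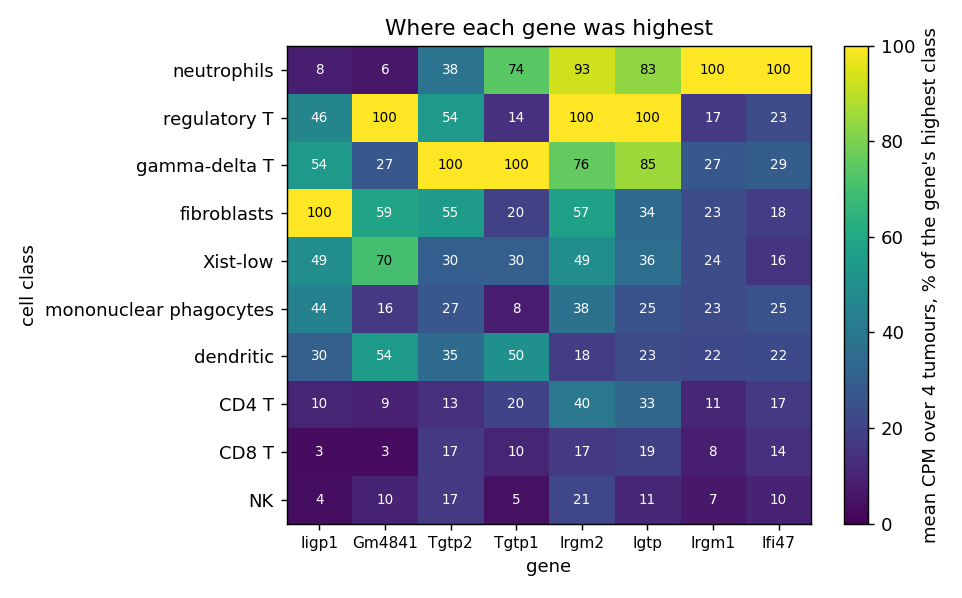
Mean level of each gene over the 4 tumours in each cell class, as a percentage of that gene's highest class. Iigp1 and Gm4841 are low in neutrophils (8 and 6%), where Irgm1 and Ifi47 have their maximum (100%).

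Over 20 sums (4 tumours, and the 5 classes that reached 50 cells in all of them), log2(CPM + 1) of Irgm1 and Ifi47 correlated at r = 0.92 and that of Iigp1 and Gm4841 at 0.80, while Ifi47 correlated at -0.36 with Iigp1 and at -0.52 with Gm4841. Igtp correlated with Irgm1 at 0.80 and with Irgm2 at 0.81, the latter a pair whose annotated spans overlap. Of the 60-base words in Igtp transcripts 10% also occur in Irgm2, and 5.8% of those of Irgm2 occur in Igtp. Tgtp1 and Tgtp2 correlated at only 0.13, although most of their transcript sequence is shared. These values describe sums that share libraries, so no p is given.

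The genes most like the mean of the members over those sums were Xaf1 (r = 0.84), Gbp3 (0.79), Rnd1 (0.77), Ube2l6 (0.76), Noct (0.72), Ogfr (0.71), Gm12185 (0.69), Cxcl10 (0.69), Ndst1 (0.69) and Mbnl2 (0.68). The median over the 10913 genes compared was -0.079. Gbp3 encodes a guanylate-binding protein, another family of interferon-inducible GTPases, Ube2l6 the conjugating enzyme for the ubiquitin-like ISG15, and Cxcl10 a chemokine that draws T cells.

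In Xist-low cells no member passed the test between KO and WT, although the sum of the 8 genes and 5 of the single genes had both KO tumours above both WT tumours. The WT tumours differed widely from each other. The sum was 214, 695, 1221 and 927 CPM, a mean of 454 ± 340 in WT against 1074 ± 208 in KO (SD, n = 2 each). In this sum WT tumour 2 was closer to KO tumour 2 than to WT tumour 1. All 8 members passed the filter on low counts, 0 of 8 were called (9.15% of all genes were), 3 rose at an unadjusted p under 0.05 (15.1% of all genes), and DESeq2 also called 0. All 8 log2 fold changes were above 0, with a median of 0.85 against -0.01 over all genes.

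Among the effectors, Iigp1 was at 84.5, 308, 614 and 469 CPM in Xist-low cells, with both KO tumours above both WT tumours (log2 fold change 1.41, SE 0.51, adjusted p = 0.122). Ifi47 was at 35.4, 88.3, 125 and 95.1 CPM, again without overlap (0.77, SE 0.37, adjusted p = 0.211). Tgtp1 was at 3.7, 11.3, 10.9 and 9.6 CPM and Tgtp2 at 3.5, 13.2, 11.3 and 10.6 CPM. For this pair WT tumour 2 was the highest of the 4 tumours, and the log2 fold changes were 0.40 (SE 0.44) and 0.35 (SE 0.51). Gm4841 was at 4.2, 15.3, 20.2 and 19.9 CPM, with the KO tumours above the WT tumours (0.99, SE 0.49, adjusted p = 0.229).

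Among the regulators, Igtp was at 45.5, 147, 280 and 221 CPM (log2 fold change 1.33, SE 0.46, adjusted p = 0.112) and Irgm1 at 21.4, 48.8, 86.2 and 53.8 CPM (0.93, SE 0.36, adjusted p = 0.142). Irgm2 was at 16.3, 62.8, 73.4 and 48.2 CPM, so KO tumour 2 lay below WT tumour 2 (0.56, SE 0.53, adjusted p = 0.513). In all, 5 of the 8 members had both KO tumours above both WT tumours, where 34.9% of genes averaging 5 CPM or more did. The number of calls moved with the tumour left out. The log2 fold changes of Irgm2, Tgtp1 and Tgtp2 were lowest without WT tumour 1 and highest without WT tumour 2. A lone tumour is assumed to vary like the other group in these fits. With the tumour number as a block, 3 members (Iigp1, Igtp and Gm4841) were called higher. The share of all genes called with the block is not given, so this count is not read as particular to the members.

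Share of cells gave the same picture. With each cell thinned to 1000 UMIs, 14.9% (exact binomial interval 14.1 to 15.7%), 35.65% (34.5 to 36.9%), 60.9% (58.2 to 63.6%) and 51.3% (49.3 to 53.3%) of Xist-low cells held at least 1 member UMI. Intervals cover counting error only. Unthinned shares were 58.7, 79.0, 99.0 and 98.0%, and median depths before thinning were 12300 and 12850 UMIs in WT and 40430 and 32350 in KO. NK cells, the class with the lowest level, had 16.2, 23.7, 19.5 and 15.9% when thinned, and no class is known to lack these genes. With 2 tumours against 2, an exact permutation test cannot go below p = 0.333, so none was run.

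Markers of T cells were also higher in the KO Xist-low cells: 7 of 8 were called, and their sum was 7.45, 4.19, 27.7 and 19.2 CPM, against 3460 to 5654 CPM in T and NK cells themselves. Markers of mononuclear phagocytes summed to 272, 116, 395 and 317 CPM, with 1 of 12 called, and fibroblast markers to 2134, 2704, 1617 and 1076 CPM, with 3 of 10 lower. No marker of these lists was at 0 in all tumours. With free RNA subtracted, the median log2 fold change of the members in Xist-low cells was 0.88 and 0 were called. The subtracted profile sums all barcodes of a library, of whose cells 71.1, 60.9, 14.5 and 28.5% were Xist-low. It left 85.0, 93.8, 96.7 and 95.8% of the Iigp1 UMIs. A profile made largely of the WT Xist-low cells themselves can hardly change their levels, so this does not test stray RNA. The part of doublets or stray cells in the result was not tested beyond a fit with doublets kept, which called 0.

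The Xist-low cells fell into 8 clusters, here called states, and KO and WT tumours filled different ones. State 5, led by Gja4, Gm42679, Krt16, Nppb and Cxcl10, made up 1.31, 2.89, 58.9 and 47.8% of the Xist-low cells. The members were high in it wherever it occurred, at 1479, 1712, 1456 and 1213 CPM summed. State 5 supplied 10.1, 12.2, 74.9 and 65.8% of all member UMIs of the Xist-low cells. States 0 and 1, which held 30.5 and 29.3% of the Xist-low cells of WT tumour 1, were at 95.2 and 109.7 CPM there.

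Within state 5 the members were not higher in the KO tumours, and 3 of the 8 fell (0.373% of all genes did). Tgtp1 was at 27.3, 22.3, 12.2 and 11.9 CPM (log2 fold change -0.99, SE 0.17, adjusted p = 0.0356, edgeR). Gm4841 was at 40.6, 43.2, 23.6 and 25.4 CPM (-0.78, SE 0.14, adjusted p = 0.0427). Ifi47 was at 208, 218, 147 and 124 CPM (-0.66, SE 0.12, adjusted p = 0.0454). DESeq2 also called 3 members lower, but the share of all genes it called in this state is not given. In each of these the KO tumours lay below both WT tumours. Iigp1, at 643, 858, 755 and 630 CPM, overlapped between the groups (-0.13, adjusted p = 0.747), while Igtp, at 328, 330, 327 and 283 CPM, differed little (-0.12, adjusted p = 0.693). Altogether 7 of 8 members had both KO tumours below both WT tumours, where 22.5% of genes did. The calls for Gm4841 and Ifi47 were lost without WT tumour 2 (adjusted p = 0.143 and 0.0978), that for Gm4841 without KO tumour 1 (0.0907) and that for Ifi47 without KO tumour 2 (0.136).

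The other 3 states with at least 50 cells in every tumour gave 0 called members with edgeR or DESeq2. At an unadjusted p under 0.05, 2 were lower in state 7 (9.35% of all genes), 5 lower in state 10 (5.63%) and 2 higher in state 20 (11.4%). State 7, led by histone genes of cycling cells, had a sum of 355, 604, 407 and 524 CPM (1.62% of all genes were called). State 10, led by Apol6, Apol10b, Lrrtm2 and Gm4841, had 1012, 1408, 993 and 1082 CPM (0.00816%). Gm4841 and Tgtp1 are among the 10 leading genes of state 10, so its level is in part what defined it. State 20, led by Ifit3 and Ifit1, which respond to type I interferon, had 745, 1693, 1884 and 2074 CPM (3.69%), and Iigp1 there was at 265, 678, 844 and 931 CPM (0.87, SE 0.32, adjusted p = 0.152). State 3, led by Lbp and Prelp, had 133, 780, 2527 and 1928 CPM but only 20 and 30 cells in the KO tumours, and was not tested.

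Cxcl10 is among the genes that lead state 5 and is itself interferon-inducible. The cells were clustered again without the members and the lists of interferon, guanylate-binding and IRG genes. Cxcl10 and the Ifit genes are not on those lists and were kept, so this clustering is not free of interferon-inducible genes. Cxcl10 was still among the leading genes of the state led by Gja4 and Nppb. The state led by Gja4 and Nppb then held 6.6, 5.5, 68.4 and 56.6% of Xist-low cells, and its members summed to 378, 1190, 1247 and 1034 CPM. WT tumour 1 was now far below the other 3 tumours within the state, and 0 members were called, 0 also at an unadjusted p under 0.05 (Iigp1 0.63, SE 0.46). Of all genes 0.997% were called, with 11.3% higher and 10.1% lower at the unadjusted threshold. Of the other 4 states that could be tested, 1 gave a call, the one led by Gm26917, with Iigp1 higher (1.66, adjusted p = 0.0354; 0.945% of all genes).

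The part of the shift that follows the mix of states depended on this choice in WT tumour 1. With its own level in each state and the mix of KO tumour 1 or 2, WT tumour 1 would sum to 1162 or 952 CPM in the first clustering and to 365 or 335 CPM in the second, from 214 CPM as measured. WT tumour 2 would go from 695 to 1448 or 1207 CPM in the first, and to 1103 or 993 CPM in the second. These are arithmetic on the measured levels and have no test.

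**Figure D3:**
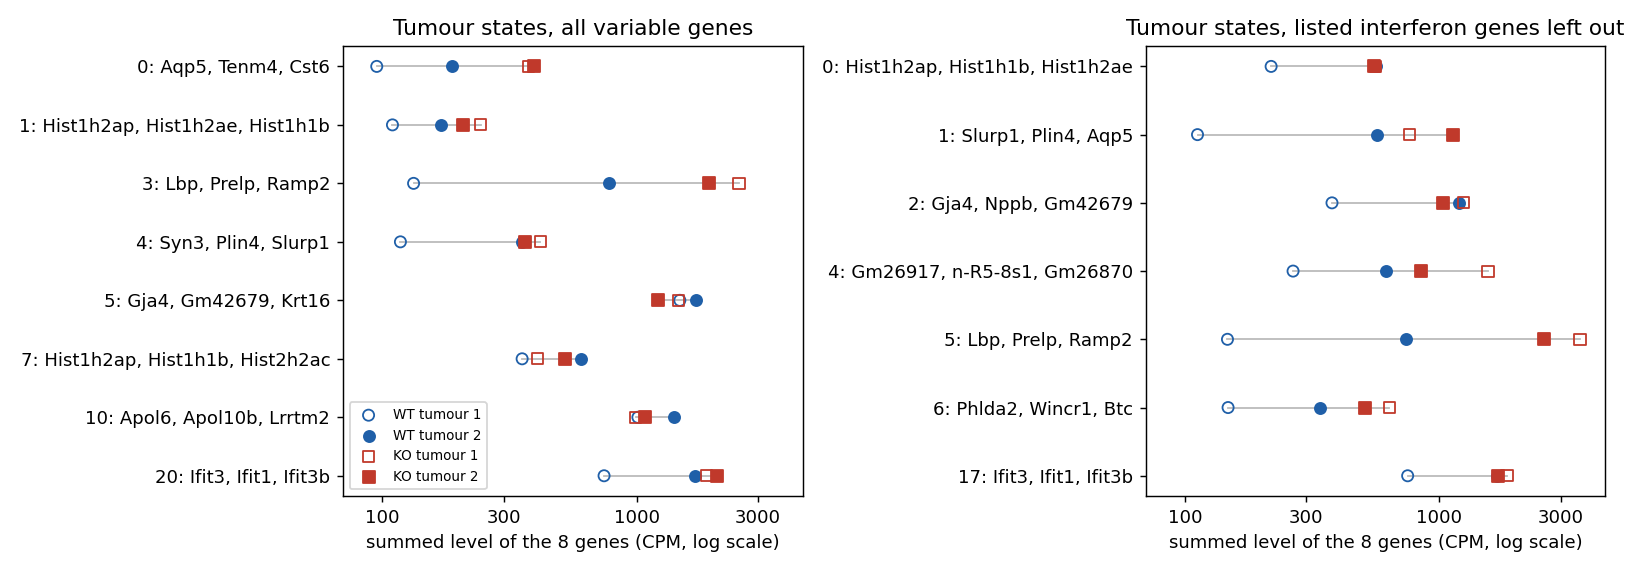
Summed level of the 8 genes (CPM, log scale) in each state of Xist-low cells, with 1 point per tumour, for states drawn from all variable genes (left) and from genes without the interferon lists and the members (right). The state led by Gja4 reads 1479 CPM in WT tumour 1 on the left and 378 CPM on the right.

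In mononuclear phagocytes, monocytes and macrophages that are a textbook site of IRG induction, no member was called between KO and WT. Their sum was 492, 844, 710.1 and 725 CPM, and both KO tumours lay between the WT tumours. Of 8 tested, 0 were called (2.29% of all genes were), 1 was higher and 1 lower at an unadjusted p under 0.05 (10.1 and 11.2% of all genes), 3 log2 fold changes were above 0, and the median was -0.15 against -0.04 over all genes. DESeq2 called 0 as well. On simulated counts of this class the edgeR test recovered only 38% of 2-fold changes, so changes of that size can be missed. The make-up of the class differed between the groups: cluster 2 held 54, 224, 1739 and 1119 of its 535, 768, 2724 and 1956 cells, and cluster 17 held 161, 375, 401 and 69. The part of this mix in the class levels was not tested.

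Among the effectors in these cells, Iigp1 was at 222, 404, 321 and 369 CPM (log2 fold change 0.22, adjusted p = 0.732) and Ifi47 at 109, 189, 136 and 123 CPM (-0.13, adjusted p = 0.837). The groups overlapped for both. Tgtp1 stayed between 1.3 and 3.0 CPM and Tgtp2 between 4.3 and 15.7 CPM. Gm4841 was at 4.6, 4.5, 2.3 and 2.5 CPM (-0.86, adjusted p = 0.222), lower in both KO tumours. Of the regulators, Igtp was at 78.8, 119, 139 and 143 CPM and was the only member with both KO tumours above both WT tumours among those with a mean of at least 5 CPM (0.59, adjusted p = 0.213; 21% of such genes did so). Irgm1 was at 37.9, 57.7, 62.6 and 48.4 CPM and Irgm2 at 32.6, 51.7, 39.1 and 31.7 CPM, both overlapping.

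The clusters inside the class differed from one another. Tests of single host clusters were added after the data had been seen. Cluster 17, led by Retnla, Ear2, Lyz1 and Cd163, genes of resident and alternatively activated macrophages, had 5 members called lower in the KO tumours. The sum was 886, 929, 312 and 290.2 CPM, in 161, 375, 401 and 69 cells. Of the 7 members that passed the filter on low counts, 5 fell (1.75% of all genes did), and all 7 had both KO tumours below both WT tumours, where 22.4% of genes did.

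In cluster 17, Igtp was at 155, 130.3, 44.2 and 30.3 CPM (log2 fold change -1.81, SE 0.30, adjusted p = 0.00329, edgeR) and Iigp1 at 367, 436, 119 and 113 CPM (-1.79, SE 0.31, adjusted p = 0.00396). Ifi47 was at 206, 205, 83.6 and 95.3 CPM (-1.23, adjusted p = 0.0256), Gm4841 fell from 18.3 and 12.0 CPM to 1.9 CPM and none (-3.06, adjusted p = 0.0256), and Tgtp2 from 16.8 and 17.6 CPM to 3.7 CPM and none (-2.36, adjusted p = 0.0373). The fitted changes of Gm4841 and Tgtp2 rest on 10 UMIs or fewer in each KO tumour. Irgm1 and Irgm2 did not pass (adjusted p = 0.0668 and 0.0647), and Tgtp1 had 0 to 6 UMIs and was not tested. Other interferon-responsive genes fell with them: Gm12250 (-2.02) and Gm4951 (-1.83) of 6 other IRG-type genes, Gbp5, Gbp2b, Gbp8 and Gbp4 of 9 guanylate-binding genes, and Stat2 (-1.26).

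The estimated part of free RNA among the UMIs of cluster 17 was 18.8, 20.4, 7.4 and 8.8%, so it moved with the groups. Neutrophil markers there were at 82.2, 71.1, 297 and 178 CPM, with 2 of the 4 tested (10 listed) called higher, T cell markers (8, none past the filter) at 19.8, 33.6, 154 and 39.0 CPM, and 1 CD4 T cell marker was called higher. None of these markers was at 0 in all tumours, and their part in the result was not tested. With free RNA subtracted, 2 members were called, Igtp (-2.58) and Iigp1 (-2.43). DESeq2 called 2 members, and the calls also changed with the tumour left out. The shares of all genes called with DESeq2 or with free RNA subtracted are not given for this cluster.

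In the remaining macrophage clusters no member was called lower. Cluster 2, led by Nos2 and Arg1, was at 1012, 1000, 841 and 723 CPM with 0 members called (0.0181% of all genes were), 2 lower at an unadjusted p under 0.05 (4.71%) and 0 by DESeq2. Its sum was lower in both KO tumours than in both WT tumours, as were 4 of the 7 members averaging 5 CPM or more (20.3% of genes). Cluster 11, led by Pf4, Ccl12 and Apoe, was at 301, 542, 527 and 742 CPM, with Igtp called higher (1.15, SE 0.27, adjusted p = 0.0404; 2.54% of all genes were called higher). With free RNA subtracted the change was 1.13 (adjusted p = 0.0624), a fold of nearly the same size that did not pass. The call was also lost without WT tumour 1 (0.89, adjusted p = 0.262) or KO tumour 2 (0.85, adjusted p = 0.145). Whether the changes of the clusters differ from one another was not tested.

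In fibroblasts as a class 0 of 8 members were called (0% of all genes were, 0 of 11579). The sum was 763, 811, 1181 and 1892 CPM, and 5 of 8 members had both KO tumours above both WT tumours (18.6% of genes did), while Irgm2, Gm4841 and Ifi47 overlapped. Fibroblast markers were at 37180, 45550, 85400 and 61970 CPM, with 0 of 10 called. At an unadjusted p under 0.05, 4 rose (7.41% of all genes), and DESeq2 called 0 members. Igtp (log2 fold change 1.25, SE 0.36, adjusted p = 0.289) and Iigp1 (1.21, SE 0.33, adjusted p = 0.275) had the smallest p. The make-up of the class differed between tumours: cluster 18 held 162, 86, 88 and 190 of its 202, 269, 378 and 266 cells. Cluster 19 held 40, 183, 290 and 76. The part of this mix in the class levels was not tested, and the clusters are given one by one.

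Cluster 18, led by Tnc, Col12a1, Grem1 and Lrrc15, genes of contractile tumour fibroblasts, had 703, 602, 3469 and 2232 CPM, in 162, 86, 88 and 190 cells. Of 8 members tested, 4 rose (0.693% of all genes did), and all 8 had both KO tumours above both WT tumours, where 24.8% of genes did. Iigp1 was at 462, 291, 2466 and 1484 CPM (2.45, SE 0.36, adjusted p = 0.0407, edgeR), Igtp at 82.9, 127, 446 and 352 CPM (2.02, SE 0.28, adjusted p = 0.0383), Ifi47 at 67.7, 84.7, 224 and 178 CPM (1.49, adjusted p = 0.0464) and Tgtp2 at 9.1, 3.4, 48.2 and 37.3 CPM (2.61, adjusted p = 0.0407). The groups were far apart for these 4 genes. Irgm1, Irgm2, Tgtp1 and Gm4841 (1.21 to 1.78) did not pass.

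Other genes of the response rose in cluster 18 too, among them Stat2 (1.51) and Irf8 (2.18), the inhibitors Socs1 (2.42) and Socs3 (1.64) of 4, Gm12250 (1.76), Gm4951 (2.43) and F830016B08Rik (2.64) of 6 other IRG-type genes, and 5 of 11 guanylate-binding genes. The estimated part of free RNA was 14.2, 26.7, 9.8 and 4.8%, Xist was at 224, 177, 564 and 556 CPM and the fibroblast markers at 34730, 13880, 45420 and 52380 CPM, so the WT cells of the cluster carried less of the host and fibroblast signal. With free RNA subtracted, 0 members and 0 of all genes were called, and Iigp1 was at a log2 fold change of 2.41 (adjusted p = 0.0816). The calls also changed with the tumour left out. With the tumour number as a block 2 were called, and with doublets kept 8. The shares of all genes called in these fits are not given.

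Cluster 19, led by Clec3b, Efemp1 and Pi16, genes of the universal fibroblasts of connective tissue, had 1118, 958, 238 and 398 CPM. All 7 members with a mean of at least 5 CPM were lower in both KO tumours than in both WT tumours, where 23.1% of genes were. Iigp1 went from 678 and 566 CPM to 117 and 260 CPM. It held only 40 cells in WT tumour 1 and was not tested.

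**Figure D4:**
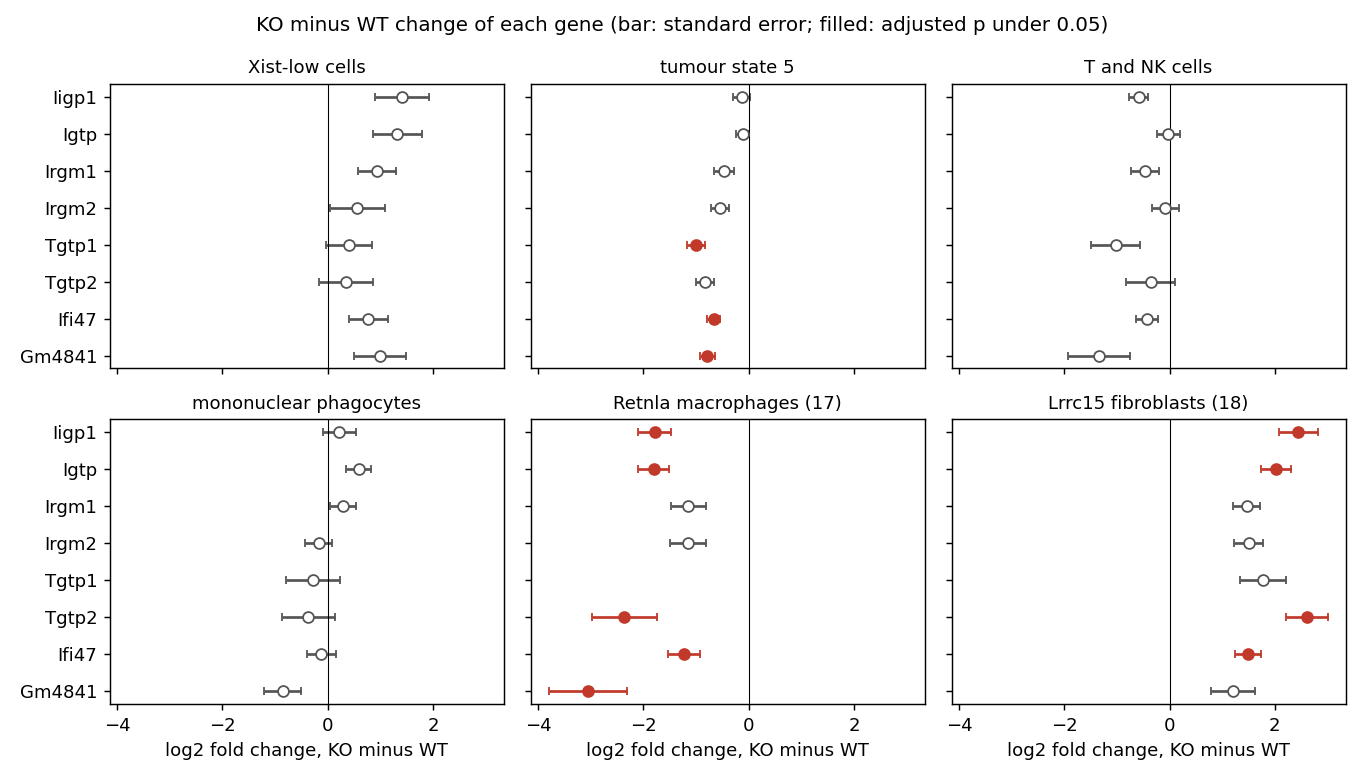
Log2 fold change, KO minus WT, of each gene in 6 groups of cells, with bars for the standard error and filled points for an adjusted p under 0.05. The genes lie above 0 in Xist-low cells without a call, below 0 in state 5 and in the Retnla macrophages (cluster 17), and above 0 in the Lrrc15 fibroblasts (cluster 18).

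In T and NK cells together, the sum was 352, 492, 373 and 344 CPM, and 0 of 8 members were called (6.96% of all genes were). All 8 log2 fold changes were below 0, with a median of -0.45 against 0.01 over all genes, and 3 were lower at an unadjusted p under 0.05 (11.8% of all genes), of which Iigp1 had the smallest (-0.59, adjusted p = 0.0687). DESeq2 called 0. The mix of the class differed between the groups: CD8 T cells, where the members are low, were 85, 79, 1002 and 924 of its 506, 416, 2195 and 2236 cells, regulatory T cells 108, 49, 164 and 175, and gamma-delta T cells 50, 52, 81 and 154. Of 7 CD8 T cell markers 3 were called higher, and so were 6 of 12 markers of mononuclear phagocytes (570, 363, 982 and 926 CPM). None of those was at 0 in all tumours, and the part of mix or markers was not tested. The calls changed without WT tumour 1. In CD4 T cells, CD8 T cells and NK cells tested alone, 0 of the 5, 6 and 5 members tested were called (0.372, 0.301 and 7.11% of all genes were), and DESeq2 called 0. At an unadjusted p under 0.05, 1 was higher and 1 lower in CD4 T cells (8.07 and 6.77% of all genes), and 0 in CD8 T cells (8.41 and 6.88%) or NK cells (11.5 and 11.8%). In gamma-delta T cells, innate-like lymphocytes that respond early in tissues, Ifi47 fell from 148 and 316 CPM to 94.4 and 93.5 CPM (-1.40, SE 0.39, adjusted p = 0.0273, edgeR), 1 of 5 members tested (1.36% of all genes fell). DESeq2 did not call it, and the call was lost with doublets kept.

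Neutrophils had 0 of 5 tested members called (0% of all genes were, 0 of 4745), and their groups overlapped for the sum. Tgtp1, Tgtp2 and Gm4841 did not pass the filter on low counts there. DESeq2 called 0 members, and 0 had an unadjusted p under 0.05 (5.94% of all genes were higher and 7.59% lower). The cells are shallow: 23, 159, 82 and 120 of them held under 1000 UMIs, among 50, 350, 730 and 391.

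The change in T and NK cells differed from that in Xist-low cells by a test of the difference itself, fitted with the tumour as a block. It was lower for 5 of the 8 members (6.98% of all genes were lower), Iigp1 by the most certain margin (-2.23, SE 0.28, adjusted p = 0.000109). In mononuclear phagocytes it was lower than in Xist-low cells for Ifi47 (-0.92, SE 0.20, adjusted p = 0.0303) and Iigp1 (-1.34, SE 0.31, adjusted p = 0.0367), 2 of 8 (3.2% of all genes). For fibroblasts and neutrophils 0 members differed (1.97 and 0.216% of all genes did), with 1 lower in each at an unadjusted p under 0.05 (9.37 and 3.52%). The Xist-low tumours enter every one of these comparisons.

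The pathway upstream was followed through lists of its genes. In Xist-low cells none of the 4 interferon receptor genes was called, 2 of 11 signalling and transcription genes rose, and 2 of 4 inhibitor genes rose. Of all genes 9.15% were called in these cells, counting both directions. Irf1, the transcription factor that carries much of the response to interferon-gamma, was at 120, 226, 405 and 404 CPM (log2 fold change 1.17, adjusted p = 0.0443), and Irf8 rose as well (1.22, adjusted p = 0.0101). Socs1, the feedback inhibitor of JAK kinases, was at 26.6, 33.9, 101 and 114 CPM (1.78, adjusted p = 0.0076) and Socs3 rose (1.00, adjusted p = 0.0114). For Irf1 and Socs1 the WT tumours lay closer together than for the members.

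Of 8 other IRG-type genes tested in Xist-low cells 0 were called (median 0.23). Of 12 guanylate-binding genes 1 fell, Gbp2b (-3.17, adjusted p = 0.023), while the list's median was 1.13. A list of 10 genes held ATG8 proteins and the factors that conjugate them to membranes, a step that places IRG proteins on vacuoles. Of these Map1lc3b, which encodes an ATG8 protein, fell (-0.58, adjusted p = 0.0441). In mononuclear phagocytes Gbp2b was the 1 gene called among all these lists (-3.65, adjusted p = 0.0258), and Irf1 (0.67, adjusted p = 0.415) and Socs1 (1.43, adjusted p = 0.0729) did not pass.

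Within state 5, other genes of the lists fell beside the members: Gm12250 (-1.10), Gm4951 (-0.83), Gbp5 (-0.75), Irf2 and Ciita (-1.36), whereas Socs3 rose (0.69). Ifng, the gene for interferon-gamma, reached 282, 658, 320 and 382 CPM in the T and NK class and 789, 2115, 475 and 667 CPM in CD8 T cells, highest in WT tumour 2 in both. No relation of these levels to the members can be tested over 4 tumours.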

How the data were processed

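Single-cell RNA sequencing libraries of 2 WT and 2 KO tumours were used. The deposited files hold raw UMI counts per gene and barcode, made by the authors with Cell Ranger 5.0.1 on mm10, per the labels' protocols, while the file headers name version 6.1.2. The submitters' processing notes name Seurat 5.1.0. Barcodes needed at least 300 genes and 500 UMIs, with mitochondrial UMIs no higher than 20%. The highest Scrublet scores were removed (0.8% per 1000 barcodes), and cells were clustered with scanpy 1.11.5 (2000 variable genes, 30 components, 15 neighbours, Leiden resolution 1.0). Scrublet's own threshold marked 0, 0.00892, 3.24 and 4.36% and was not used. Clusters needed 3 markers, each in 10% of cells and at least 2 times the level of other cells.

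Sums of counts over the cells of each class in a tumour were tested with edgeR 4.0.16 (quasi-likelihood, TMM, filterByExpr, two-sided, Benjamini-Hochberg over all genes of a fit, threshold 0.05) in R 4.3.3, for classes with at least 50 cells in every tumour. Each class had its own fit. The test of a difference between classes had the tumour as a block. Levels are CPM of the sums without TMM, except in tests. Free RNA was estimated as a share of the summed profile of all barcodes of a library, not of empty droplets. The main test was also run on simulated counts whose spread followed the trend over all genes in these data. Of simulated 2-fold changes it recovered 96% in Xist-low cells and 38% in mononuclear phagocytes. Of 1.5-fold changes it recovered 44 and 6%. The spread of the single members between tumours was not simulated, so these shares do not say how often a change of a member would be found. The alternatives were another normalization (RLE), no filter on low counts, DESeq2 1.42.0, the tumour number as a block, each tumour left out, doublets kept, free RNA subtracted, clustering without the interferon lists and resolution 2.0. The labels do not say that equal numbers share anything, so the numbers were not taken to pair the tumours. The correlation of same-numbered tumours' deviations was -0.12 in Xist-low cells and -0.28 in mononuclear phagocytes. Over all groups of cells tested it ran from -0.58 in fibroblasts to 0.26 in an unnamed cluster. Crossed numbers were added as an alternative.

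The family and the gene lists were chosen with earlier results of these data known, and the members within the family by symbol. All 8 members are named with values in Xist-low cells and mononuclear phagocytes and by range elsewhere. Of other genes, the called ones of the fixed lists (at most 6 a list), Irf1, Socs1 and the 10 most alike in pattern are named. A further gene that the rule names is not reported here. Ifng and leading cluster genes were named after their values were seen, as were the host clusters tested singly. Endothelial, mural and mast or basophil cells were too few to test or rank.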

Additional observations from a re-analysis of the deposited data

Results flagged for a closer look

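For 16 combinations of a member and a host class, the KO minus WT change differed from that in Xist-low cells by a test of the difference itself (edgeR, tumour as a block, adjusted over all genes of the fit). In each of them the change was lower in the host class, in log2 units. In T and NK cells the difference was -2.23 for Iigp1 (SE 0.28, adjusted p = 0.000109), -1.29 for Ifi47 (0.18, 0.000281), -1.50 for Igtp (0.22, 0.000335), -1.50 for Irgm1 (0.25, 0.00116) and -2.43 for Gm4841 (0.54, 0.00696).

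Among the subclasses, CD4 T cells differed by -1.41 for Ifi47 (SE 0.27, adjusted p = 2.74e-05) and by -1.60 for Iigp1 (0.34, 0.000762), and CD8 T cells by -1.09 for Igtp (0.25, 0.000738). NK cells differed by -1.12 for Igtp (0.28, 0.00175), by -0.92 for Ifi47 (0.27, 0.0104) and by -1.63 for Irgm1 (0.49, 0.0154). Gamma-delta T cells differed by -1.53 for Iigp1 (0.26, 2.28e-06), by -1.99 for Ifi47 (0.36, 9.8e-06) and by -1.25 for Igtp (0.27, 0.000939). Of all genes, 1.95% were lower in this way in CD4 T cells, 3.08% in CD8 T cells, 5.49% in NK cells and 0.698% in gamma-delta T cells.

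Mononuclear phagocytes differed by -0.92 for Ifi47 (SE 0.20, adjusted p = 0.0303) and by -1.34 for Iigp1 (0.31, 0.0367). Both calls were lost without WT tumour 1 (adjusted p = 0.0613 and 0.0704) or without KO tumour 1 (0.144 and 0.057), and that for Ifi47 also without KO tumour 2 (0.0931). The 16 combinations share the Xist-low sums, and subclasses share cells with the T and NK class, so they are not independent of each other.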

How the results depend on the processing

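Counts of called members moved with several choices. In Xist-low cells, where 0 were called, 6 were called without a filter on low counts, 4 with crossed tumour numbers, and 0 to 8 with 1 tumour left out. In the 4 host classes together (0 called), 4 were called without the filter, 4 with crossed numbers, 1 with free RNA subtracted and 0 to 2 with 1 tumour left out. Within the states (3 called), the counts were 12, 8 and 3 to 14 for no filter, crossed numbers and 1 tumour left out. For the difference from Xist-low cells (7 called) they were 14 without the filter and 5 to 13 with 1 tumour left out. In cluster 17 (5 called), DESeq2 gave 2, free RNA subtraction 2 and leaving out 1 tumour 1 to 6. In cluster 18 (4 called), no filter gave 8, crossed numbers 7, doublets kept 8, free RNA subtraction 0 and leaving out 1 tumour 0 to 7. No share of all genes called stands beside these counts, so they describe the choices and not the members. The causes were not tested.

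With the tumour number as a replicate block, 3 members were called in Xist-low cells and 2 in cluster 18. It moved no other of these counts by more than 1.5 times. In an unnamed cluster with 0 called, the block gave 3. The shares of all genes called with the block are not given.

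Single fold changes kept their direction and side of the threshold in 428 of the other recomputations, became significant in 80 and lost significance in 38. The direction turned in 10, none of them past the threshold. With 1 tumour left out, log2 fold changes in Xist-low cells ran from -0.10 to 1.82 for Irgm2, -0.19 to 1.38 for Tgtp1 and -0.31 to 1.59 for Tgtp2, lowest without WT tumour 1 and highest without WT tumour 2. In mononuclear phagocytes they ran from -0.16 to 0.78 for Iigp1, -0.48 to 0.26 for Irgm2, -0.90 to 0.13 for Tgtp1, -1.01 to 0.93 for Tgtp2 and -0.48 to 0.38 for Ifi47, and in state 5 from -0.30 to 0.10 for Iigp1. With doublets kept, the log2 fold change of Ifi47 in mononuclear phagocytes was 0.0458. The summed level in mononuclear phagocytes of the KO tumours went from a mean of 717 to 703.5 CPM with free RNA subtracted. Thinned to 3000 UMIs, a mean of 42.3% of WT and 80.5% of KO Xist-low cells held a member UMI, against 25.3 and 56.1% at 1000. Neutrophils could not be tested at resolution 2.0. Tgtp1, Tgtp2 and Gm4841 had few UMIs in small classes, which limits what can be seen there.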

Other observations

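Cells with few UMIs and under 1 Xist UMI per 10000 formed a cluster that was left unnamed, with 511 cells in WT tumour 1, 913 in WT tumour 2, 112 in KO tumour 1 and 180 in KO tumour 2. Of 6 members tested there, 3 were higher in the KO tumours (1.53% of all genes were): Iigp1 by a log2 fold change of 2.76 (SE 0.32, adjusted p = 0.000401, edgeR), Gm4841 by 3.33 (SE 0.54, adjusted p = 0.00438) and Igtp by 1.51 (SE 0.34, adjusted p = 0.0368). DESeq2 called 2 of the members, but the share of all genes it called there is not given. Markers of mononuclear phagocytes there were at 745, 229, 1302 and 1412 CPM in WT tumour 1, WT tumour 2, KO tumour 1 and KO tumour 2, with 3 of 12 called higher and none at 0 in all tumours, and their part in the result was not tested. The sum of the 8 genes had a mean of 202 ± 52.2 CPM in WT and 912 ± 276 CPM in KO (SD, n = 2 each). In an unnamed cluster with few UMIs whose cells held T cell markers, Ifi47 was lower in the KO tumours (-1.31, SE 0.26, adjusted p = 0.0053), 1 of 5 members tested (2.2% of all genes were lower), and DESeq2 called 0. In another unnamed cluster with few UMIs, led by mt-Tw and Mertk, 0 of 5 members were called (0 of all 7593 genes were). DESeq2 called 0 there too. With the tumour number as a block 3 were called higher, but the share of all genes called in that fit is not given.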
